A study of Mus musculus with 15 samples.

Results

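Among the 16199 genes measured in ventricles of mice with inducible CELF2, 49 encode subunits of voltage-gated sodium channels, voltage-gated calcium channels, chloride channels and transporters of the ClC family, or the hyperpolarization-activated pacemaker channels. They were taken by symbol as every gene starting with Cacn, or with Scn, Clcn or Hcn followed by a digit. Another 5 genes with similar symbols fell outside this rule. The 49 genes comprised 10 sodium channel pore subunits and 4 sodium channel beta subunits. The calcium channel genes were 4 L-type, 3 P/Q-, N- or R-type and 3 T-type pore subunits, 4 alpha2delta, 4 beta and 6 gamma subunits. The rest were 2 plasma membrane ClC channels, 5 endosomal or lysosomal ClC transporters and 4 pacemaker channels. Levels are in RPKM, a read count scaled by the length of the gene's constitutive coding sequence and by the size of the library. Averaging 1 RPKM or more across the 15 hearts, 22 of the 49 genes were tested, and the other 27 were not. Values of 3 of the 49 genes are not reported here, and these genes still count in the totals.

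The study asked how mRNA levels follow the induction of CELF2, an RNA-binding protein that acts on splicing and on mRNA in the cytoplasm. FVB mice aged 14 to 16 weeks carried MHCrtTA/TRECUGBP2, in which the Myh6 promoter, active in cardiomyocytes, drives the reverse tetracycline transactivator and a Tet-responsive element drives FLAG-tagged human CELF2. Per the labels they were fed 2 g/kg doxycycline for 12 h, 24 h, 72 h or 7 d, whereas an animal list of the study gives these mice, controls included, a higher dose. Control mice of the same strain and age carried MHCrtTA alone and received the same food for 72 h, so that duration of doxycycline also differed between most groups and their controls. Each group had 3 hearts from separate animals, and the same 3 controls served every comparison with control. The tissue was ventricle without atria and without a small part of the apex, so induced cardiomyocytes were measured together with uninduced cells of other types. In bulk tissue, fewer cells of a type and less RNA per cell cannot be told apart.

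Celf2 itself, listed under its older symbol, ranged from 8.54 to 11.3 RPKM in controls, from 84.5 to 192 at 12 h, from 112 to 173 at 24 h, from 213 to 261 at 72 h and from 261 to 359 at 7 d. Between 1463 and 1977 genes were at 0 in a heart, and the table holds no read totals. A code in the sample titles, of unstated meaning, divides the hearts into 3 sets that are called runs A, B and C. A single heart of every group, and an additional 72 h heart, belonged to run A. The remaining hearts of the control, 12 h and 24 h groups belonged to run B, and those of the 72 h and 7 d groups to run C. Thus 7 d and 12 h hearts shared only run A, with 1 heart each. Y-linked mRNA was present in 1 control heart, in none of the 12 h hearts, in 2 of the 24 h hearts and in all 72 h and 7 d hearts. The heart of run A at 12 h stood apart from the other hearts of its group in several channel genes and is named where it matters. Atrial markers, 5 of 5 in the table and 1 of them averaging under 1 RPKM, summed to 121 to 347 RPKM at 7 d, 57.5 to 150 at 72 h, 98.0 to 226 at 24 h, 62.4 to 534 at 12 h and 62.2 to 153 in controls. The second heart at 12 h was the highest, with 103 RPKM of Myl7 and 149 of Myl4, although atria had been removed, and the part of this in the channel levels was not tested.

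Cardiac excitation rests on these channels in sequence. Sodium channels carry the upstroke of the action potential and its spread, L-type calcium channels admit the calcium that triggers contraction, and T-type and pacemaker channels contribute to automaticity in conducting cells. Pore-forming alpha subunits are trafficked and tuned by auxiliary beta, alpha2delta and gamma subunits. In the ClC family, some members are chloride channels of the plasma membrane and others exchange chloride for protons in endosomes and lysosomes. CELF proteins and their antagonists of the MBNL family are known for their part in myotonic dystrophy, in which mis-splicing of the muscle chloride channel transcript underlies myotonia and cardiac conduction is disturbed. The table gives 1 value per gene, so nothing here bears on splicing.

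The channel mRNAs spanned a wide range of levels per length. Of the genes reported, Cacna1c had the highest mean over the 15 hearts at 20.3 RPKM, followed by Cacnb2 at 18.9, Scn4b at 18.5, Clcn4-2 at 17.0 and Hcn2 at 15.2 RPKM. Ranges over hearts overlapped between every pair of neighbours in this order, with Cacna1c from 12.42 to 27.70 RPKM and Cacnb2 from 13.00 to 23.25 RPKM. A middle group held Cacna2d1 (10.7), Cacnb1 (8.94), Clcn7 (8.37), Clcn3 (8.25), Scn4a (6.63) and Cacna1g (6.44 RPKM). Low but tested were Scn7a (3.21), Clcn6 (2.76), Cacnb3 (1.87), Clcn2 (1.64), Cacng7 (1.52), Cacna1s (1.41), Clcn1 (1.37), Scn10a (1.36) and Hcn4 (1.14 RPKM). Hcn4 was the last gene inside the minimum and Cacna2d2, at 0.918 RPKM, the first outside it. Hence Cacna1c, known from working ventricular muscle, stood beside its auxiliary subunit Cacnb2 at a comparable level.

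**Figure D1:**
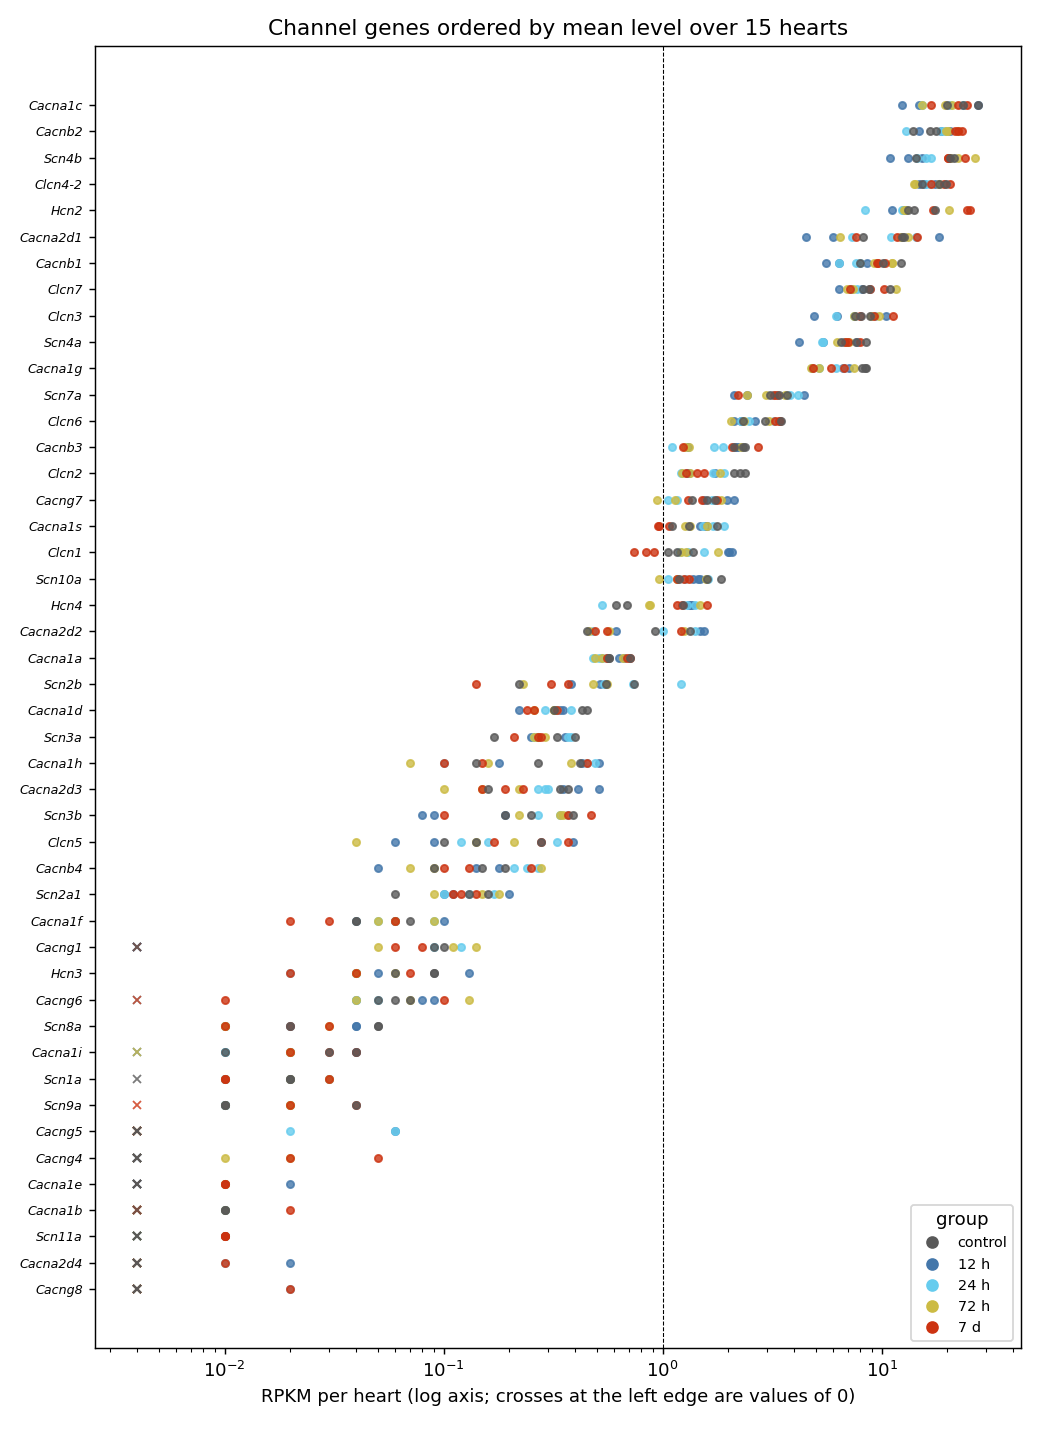
RPKM of each of the 46 channel genes reported (rows, ordered by mean) in each of the 15 hearts (points, coloured by group) on a log axis, with values of 0 as crosses at the left edge and a dashed line at 1 RPKM. The order runs from Cacna1c at a mean of 20.3 RPKM down to genes at 0 in most hearts, and 7 genes have a median of 0.

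Few channel genes passed the test, all of them in the 2 comparisons that involve the 7 d hearts. The test was limma on log2(RPKM + 0.5) of all 10557 genes that averaged 1 RPKM or more, calling genes at a Benjamini-Hochberg adjusted p under 0.05. Adding the pseudocount understates the changes of low genes. At 7 d against 12 h, 6 of the 22 tested channel genes passed, 4 higher (among them Hcn2, Scn4b and Cacnb1) and 2 lower (Clcn1 and Cacna1s), beside 15.6% of all tested genes (11.8% higher and 3.88% lower). At 7 d against control, 2 passed, 1 higher and 1 lower (Clcn2), beside 9.99% of all tested genes (5.83% higher and 4.16% lower). The median log2 change of the 22 genes was 0.26 at 7 d against 12 h, against 0.13 over all tested genes, and -0.02 at 7 d against control, against 0.03 over all tested genes.

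At the earlier times none of the 22 genes passed in limma. The background was 0.388% of tested genes at 12 h, 0.0947% at 24 h and 0.597% at 72 h, each against control, and 0.559% at 24 h against 12 h. At an unadjusted p under 0.05, 8 channel genes would count at 12 h, 4 at 24 h and 3 at 72 h, each against control, and 2 between 24 h and 12 h. The same limit was passed by 12.3% of all tested genes at 12 h, 9.21% at 24 h, 13.7% at 72 h and 6.75% between 24 h and 12 h. At 12 h, 17 of the 22 fitted changes were negative, with a median of -0.26 on the log2 scale beside -0.10 over all tested genes. For some genes the runs differed in direction. In run A, with 1 heart a group, Cacna1c changed by 0.23 and Cacna2d1 by 0.50. In run B, with 2 hearts a group, Cacna1c changed by -0.76 and Cacna2d1 by -0.89. Cacnb1 (-0.48 in run A and -0.56 in run B) and Clcn2 (-0.53 and -0.50) were lower in both runs.

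These counts moved with the run. With the run as a covariate, 5 channel genes passed at 12 h against control (background 7.31%), Clcn1 higher and 4 lower, among them Clcn2, Cacnb1 and Cacna1g. Cacna1g alone passed, as lower, at 24 h (background 3.09%) and at 72 h (background 4.69%). Against control, 3 passed at 7 d (background 12.7%), 1 higher and 2 lower (Clcn2 and Cacna1g). At 7 d against 12 h, 3 passed as higher, among them Hcn2 and Cacnb1, and Clcn1 as lower (background 12.9%), while at 24 h against 12 h none passed (background 2.37%). With Y-linked mRNA as a covariate instead, none passed at 7 d against control (background 3.93%), and 2 passed at 7 d against 12 h (background 2.3%), Clcn1 as lower and 1 as higher.

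**Figure D2:**
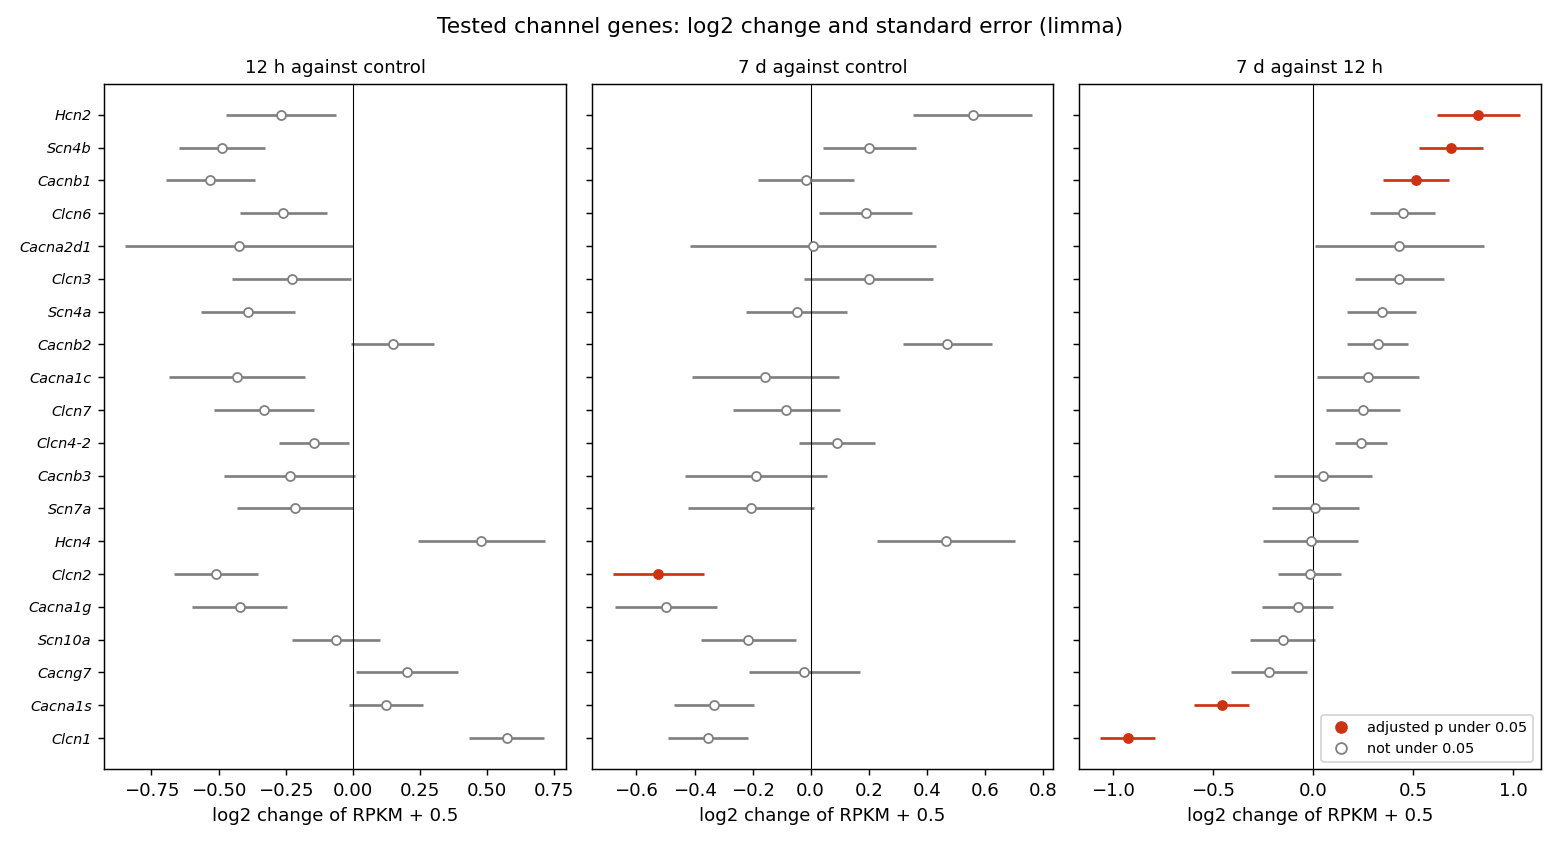
Log2 change of RPKM + 0.5 (points) with its standard error (bars) for 20 of the 22 tested channel genes in 3 comparisons, filled red where the adjusted p from limma was under 0.05. No gene is filled at 12 h against control, 1 is filled at 7 d against control (Clcn2) and 5 at 7 d against 12 h.

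To show the sequences next to which transcription of the changed genes begins, the 150 bases before the RefSeq start are printed below for the reported genes that passed, from assembly GRCm38.p6. Of the 49 genes, 37 matched an entry, as did 19 of the 22 tested genes. Capitals mark the letters TATAAA of the TATA motif, the letters GGGCGG of the GC box, or the letters CAGCTG of an E-box. Both strands were searched, so that a GC box on the other strand reads CCGCCC here. A further E-box, with the letters CACGTG, was searched and is in none of the windows printed. Of 32851 RefSeq windows of this length, 7.57% hold TATAAA, 28.6% hold GGGCGG, 8.39% hold CAGCTG and 4.3% hold CACGTG.
Scn4b, chr9:45138474-45138623, plus strand: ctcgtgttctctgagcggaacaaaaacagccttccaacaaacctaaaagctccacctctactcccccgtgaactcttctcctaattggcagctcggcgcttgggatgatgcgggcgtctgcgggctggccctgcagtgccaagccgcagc
Hcn2, chr10:79716484-79716633, plus strand: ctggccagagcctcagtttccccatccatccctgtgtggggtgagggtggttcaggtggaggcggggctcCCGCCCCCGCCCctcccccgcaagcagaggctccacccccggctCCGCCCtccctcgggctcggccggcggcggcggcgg
Cacnb1, chr11:98022628-98022777, minus strand: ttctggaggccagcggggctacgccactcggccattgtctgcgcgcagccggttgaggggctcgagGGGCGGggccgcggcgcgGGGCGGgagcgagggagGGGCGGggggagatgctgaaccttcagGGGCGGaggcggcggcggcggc
Clcn1, chr6:42286535-42286684, plus strand: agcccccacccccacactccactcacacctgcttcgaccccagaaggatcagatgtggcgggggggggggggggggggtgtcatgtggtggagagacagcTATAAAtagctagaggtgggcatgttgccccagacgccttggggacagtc
Cacna1s, chr1:136052661-136052810, plus strand: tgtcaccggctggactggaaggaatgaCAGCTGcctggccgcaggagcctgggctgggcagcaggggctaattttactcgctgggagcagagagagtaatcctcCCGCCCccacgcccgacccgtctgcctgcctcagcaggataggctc
Clcn2, chr16:20716637-20716786, minus strand: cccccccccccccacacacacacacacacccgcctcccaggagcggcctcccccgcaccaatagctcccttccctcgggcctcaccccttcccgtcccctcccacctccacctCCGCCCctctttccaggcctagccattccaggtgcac

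The windows of the genes that were higher at 7 d than at 12 h did not look alike, with 3 matches to GGGCGG for Hcn2, 4 at the first of the starts listed for Cacnb1 and none for Scn4b. Of the genes that were lower, Clcn1 had 1 TATAAA, and Cacna1s had 1 CAGCTG and 1 GGGCGG. The Clcn2 window held 1 GGGCGG. Such matches describe these letters and show no binding.

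Of the sodium channel beta subunits, Scn4b was higher at 7 d than at 12 h. Scn4b encodes beta4, the subunit linked to resurgent sodium current, and lies at chr9:44946520-44962235 on the plus strand of mm9. Its values were 14.34, 20.49 and 21.45 RPKM in control hearts, 15.34, 13.20 and 10.94 at 12 h, 14.59, 16.84 and 15.90 at 24 h, 20.46, 22.42 and 26.59 at 72 h, and 20.18, 20.09 and 23.97 at 7 d. Every heart at 7 d was above every heart at 12 h, while 7 d and control hearts overlapped. The log2 change at 7 d against 12 h was 0.69 ± 0.16 (SE, as for all log2 changes), with an adjusted p of 0.0111 in limma. With the run as a covariate, the change was 0.63 and its adjusted p 0.053, and within run A it was 0.38. The call was also lost without the third 12 h heart (adjusted p = 0.0501), without the third 7 d heart (0.052) and with Y-linked mRNA as a covariate, where the change was 0.46 (adjusted p = 0.30). Against control, the 7 d change was 0.20 ± 0.16 (adjusted p = 0.49). Lower were Scn2b and Scn3b, with means of 0.503 RPKM for Scn2b and 0.268 RPKM for Scn3b, which were not tested.

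Scn4a, the pore subunit of skeletal muscle, averaged 7.26 ± 0.647 RPKM at 7 d, against 5.78 ± 1.79 at 12 h and 7.55 ± 0.981 in controls (SD, n = 3 each). It passed in none of the 6 comparisons, nor did Scn7a or Scn10a. Without the run A heart at 12 h, 7 channel genes passed at 7 d against 12 h (background 22.1%), Scn4a and Clcn3 now among them as higher and Cacnb1 and Cacna1s no longer. Scn7a, which encodes a sodium-sensing channel relative known from glia and neurons, averaged 2.93 ± 0.623 RPKM at 7 d and 3.41 ± 0.310 in controls. Scn10a, known from sensory neurons, averaged 1.25 ± 0.0751 RPKM at 7 d and 1.54 ± 0.332 in controls. None of the neuron markers averaged 1 RPKM (8 of 8 below), and their sum stayed between 1.09 and 1.96 RPKM in all hearts. Schwann cell markers, with 6 of 8 listed genes in the table and 3 of those averaging under 1 RPKM, summed to 5.24 to 5.77 RPKM at 7 d, below 7.43 to 8.63 at 12 h and 6.81 to 7.18 in controls. The part of this in the levels of Scn7a and Scn10a was not tested. The brain-type pore subunits were barely present, with means of 0.291 RPKM for Scn3a, 0.13 for Scn2a1, 0.0247 for Scn8a, 0.016 each for Scn1a and Scn9a, and 0.004 for Scn11a.

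**Figure D3:**
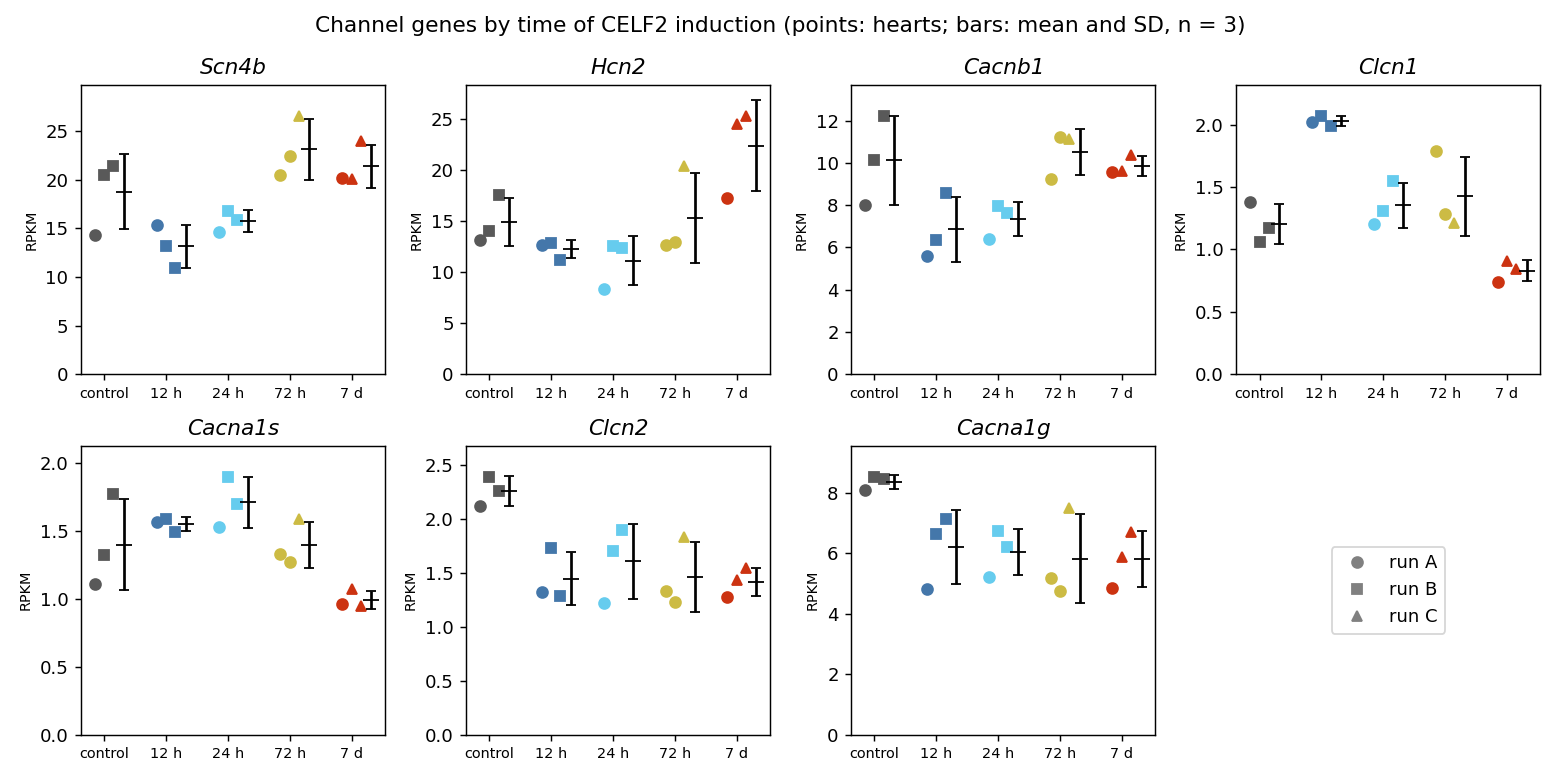
RPKM of 7 channel genes in each heart (points, with circles for run A, squares for run B and triangles for run C) by time of induction from control to 7 d, with the mean and SD of the 3 hearts of each group in black. Clcn1 at 12 h (1.99 to 2.07 RPKM) lies above all other hearts, Hcn2 at 7 d (17.26 to 25.32 RPKM) lies above all 12 h hearts, and Cacna1g is highest in the controls (8.10 to 8.53 RPKM).

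Among the calcium channel pore subunits, Cacna1s alone passed. It encodes the L-type pore of skeletal muscle, where it is the voltage sensor for contraction, and lies at chr1:137949327-138016399 on the plus strand of mm9. In heart it was low, at 1.11, 1.32 and 1.77 RPKM in controls, 1.57, 1.59 and 1.49 at 12 h, 1.53, 1.90 and 1.70 at 24 h, 1.33, 1.27 and 1.59 at 72 h, and 0.96, 1.07 and 0.95 at 7 d. All 3 hearts at 7 d were below the other 12. The log2 change was -0.46 ± 0.14 at 7 d against 12 h (adjusted p = 0.038 in limma). It was -0.44 with the run as a covariate (adjusted p = 0.099) and -0.50 within run A. The call was lost whichever single heart at 7 d or 12 h was left out (adjusted p of 0.055 to 0.11), with those groups alone and with Y-linked mRNA as a covariate. Against control, the 7 d change was -0.33 ± 0.14 (adjusted p = 0.15).

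Cacna1c, the L-type pore of cardiac muscle and the source of trigger calcium, measured 23.60, 27.45 and 19.87 RPKM in control hearts, 27.70, 14.87 and 12.42 at 12 h, 23.64, 20.45 and 15.31 at 24 h, 20.92, 19.46 and 15.31 at 72 h, and 22.40, 24.43 and 16.86 at 7 d. The hearts of each group spread as widely as the groups did, and at 12 h the run A heart was the highest of all 15. The log2 change at 7 d was -0.16 ± 0.25 against control and 0.27 ± 0.25 against 12 h (adjusted p = 0.78 and 0.50). Cacna1d, the L-type pore of pacemaking cells, averaged 0.323 RPKM and the retinal Cacna1f 0.0573 RPKM.

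Cacna1g, a T-type pore found in conducting tissue, was at 8.10, 8.53 and 8.44 RPKM in control hearts, 4.81, 6.64 and 7.13 at 12 h, 5.2, 6.72 and 6.21 at 24 h, 5.19, 4.76 and 7.49 at 72 h, and 4.85, 5.88 and 6.71 at 7 d. Each of the 12 induced hearts was below each control. No comparison passed in limma, where log2 changes against control were -0.42 (12 h), -0.44 (24 h), -0.51 (72 h) and -0.50 (7 d) (SE 0.18 each), with adjusted p values of 0.35, 0.46, 0.23 and 0.092. With the run as a covariate all 4 passed, with adjusted p values of 0.028, 0.034, 0.046 and 0.012. Within run A, which has 1 control heart, the differences were -0.70, -0.59, -0.65 and -0.68. Within run B, with 2 hearts a group, they were smaller, at -0.28 (12 h) and -0.37 (24 h). Without the run C heart at 72 h, Cacna1g passed at 72 h as the only channel gene (background 2.55%). These comparisons share their controls, so they are not independent of one another. Conduction system markers, 7 of 7 in the table and 3 of them averaging under 1 RPKM, summed to 9.64 to 16.5 RPKM at 7 d and 11.8 to 16.9 in controls, which overlapped, and their part in the level of Cacna1g was not tested.

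The T-type relatives Cacna1h (mean 0.287 RPKM) and Cacna1i (0.0207 RPKM) were low, as were the neuronal pores Cacna1e (0.00533) and Cacna1b (0.00467 RPKM). Cacna1a, the P/Q-type pore of nerve terminals, led its group with 0.57, 0.71 and 0.57 RPKM in control hearts, 0.67, 0.63 and 0.56 at 12 h, 0.48, 0.53 and 0.51 at 24 h, 0.49, 0.53 and 0.66 at 72 h, and 0.56, 0.69 and 0.71 at 7 d. Its 7 d and control values overlapped.

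Of the auxiliary calcium channel subunits, Cacnb1 alone passed. The beta subunits bind the pore from inside the cell and promote its delivery to the membrane. Cacnb1 (chr11:97862822-97884348, minus strand, mm9) measured 7.99, 10.14 and 12.22 RPKM in control hearts, 5.60, 6.37 and 8.59 at 12 h, 6.41, 7.98 and 7.62 at 24 h, 9.24, 11.20 and 11.11 at 72 h, and 9.56, 9.63 and 10.39 at 7 d. All hearts at 7 d were above all hearts at 12 h and within the control range. The log2 change at 7 d against 12 h was 0.51 ± 0.17, close to the threshold with an adjusted p of 0.0491 in limma, and 0.70 with the run as a covariate (adjusted p = 0.011). Without 1 heart it passed only where the third 12 h heart was left out. Against control at 12 h, the change was -0.53 ± 0.17 (adjusted p = 0.22 in limma and 0.019 with the run as a covariate). An exon of Gm11629 overlaps Cacnb1 on the opposite strand, and the sources used here do not say whether counting used the strand. Whether the overlap reaches the coding parts counted was not examined. If it does and strand was not used, reads of the pair cannot be told apart.

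Cacnb2, the beta subunit most associated with cardiac L-type channels, had 13.93, 16.70 and 17.75 RPKM in control hearts, 20.57, 14.85 and 18.60 at 12 h, 19.56, 18.67 and 13.00 at 24 h, 20.20, 19.67 and 22.36 at 72 h, and 23.25, 22.37 and 21.72 at 7 d. The 7 d hearts were above the controls without overlap. Yet the change of 0.47 ± 0.15 missed the threshold (adjusted p = 0.069 in limma, 0.25 with the run as a covariate). With the compared groups alone, Cacnb2 passed as higher (background 11%). Cacnb3 averaged 2.01 ± 0.747 RPKM at 7 d and 2.28 ± 0.131 in controls, and Cacnb4 averaged 0.163 RPKM over all hearts.

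Cacna2d1 encodes the alpha2delta subunit that raises channel number at the surface. Its values were 12.72, 12.42 and 8.20 RPKM in control hearts, 18.24, 6.03 and 4.53 at 12 h, 14.38, 11.03 and 7.30 at 24 h, 13.25, 12.27 and 6.43 at 72 h, and 14.49, 11.82 and 7.67 at 7 d. Hearts within a group differed more than the group means did, the run A heart at 12 h having the highest value and the other 12 h hearts the lowest. The log2 change was 0.01 ± 0.42 at 7 d against control and 0.43 ± 0.42 against 12 h (adjusted p = 1.0 and 0.52). Cacna2d2 averaged 0.918 RPKM, Cacna2d3 0.269 and Cacna2d4 0.00267 RPKM. Cacna2d3 passed as lower at 7 d than at 12 h only when no minimum was set, at means of 0.19 and 0.423 RPKM.

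Of the gamma subunits, Cacng7, which in brain also regulates glutamate receptors, averaged 1.54 ± 0.235 RPKM at 7 d, 1.88 ± 0.305 at 12 h and 1.56 ± 0.188 in controls. Its hearts measured 1.60, 1.36 and 1.73 RPKM in controls, 1.54, 1.97 and 2.13 at 12 h, 1.16, 1.69 and 1.06 at 24 h, 1.14, 0.94 and 1.85 at 72 h, and 1.52, 1.31 and 1.78 at 7 d. The groups overlapped, and the log2 change at 24 h against 12 h was -0.41 ± 0.19 (adjusted p = 0.74). The other gamma subunits stayed at or below 0.14 RPKM in every heart, with Cacng1, the skeletal muscle gamma subunit, at 0 in 6 hearts, Cacng6 in 2, Cacng4 in 11, Cacng5 in 12 and Cacng8 in 13 of the 15.

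The chloride channels of the plasma membrane passed in different comparisons, Clcn1 at 7 d against 12 h and Clcn2 at 7 d against control, in both cases as lower. Clcn1, whose product sets the resting chloride conductance of skeletal muscle, lies at chr6:42236684-42265755 on the plus strand of mm9. It measured 1.38, 1.06 and 1.17 RPKM in control hearts, 2.02, 2.07 and 1.99 at 12 h, 1.20, 1.31 and 1.55 at 24 h, 1.79, 1.28 and 1.21 at 72 h, and 0.74, 0.91 and 0.84 at 7 d. The 12 h hearts were above and the 7 d hearts below all others. Clcn1 averaged 0.83 ± 0.0854 RPKM at 7 d and 2.03 ± 0.0404 at 12 h (SD, n = 3 each), and the log2 change was -0.93 ± 0.14 with an adjusted p of 0.000631 in limma. The change was -0.90 with the run as a covariate (adjusted p = 0.0079) and -1.02 within run A.

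At 12 h against control, Clcn1 differed by 0.57 ± 0.14, with an adjusted p of 0.11 in limma and 0.028 with the run as a covariate, and by 0.42 within run A and 0.65 within run B. At 24 h against 12 h, the change was -0.45 ± 0.14 (adjusted p = 0.27), and at 7 d against control it was -0.35 ± 0.14 (adjusted p = 0.13). An exon of Fam131b overlaps Clcn1 on the opposite strand. Reads of the pair cannot be told apart if strand was not used and the overlap reaches the coding parts counted, which was not examined. Skeletal muscle markers, 7 of 7 in the table and 3 of them averaging under 1 RPKM, summed to 80.2 to 104 RPKM at 7 d, 65.7 to 107 at 12 h and 96.0 to 104 in controls. These ranges overlapped, and the sums rested mostly on Myh1 and Myh4, with means of 46.0 RPKM for Myh1 and 41.0 RPKM for Myh4 over all hearts. Their part in the levels of Clcn1 and Cacna1s was not tested.

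Clcn2 encodes a broadly expressed, hyperpolarization-activated chloride channel (chr16:20703037-20717819, minus strand, mm9). Its values were 2.12, 2.39 and 2.26 RPKM in control hearts, 1.32, 1.73 and 1.29 at 12 h, 1.22, 1.70 and 1.90 at 24 h, 1.33, 1.23 and 1.83 at 72 h, and 1.28, 1.43 and 1.54 at 7 d. All 12 induced hearts were below all 3 controls. At 7 d Clcn2 averaged 1.42 ± 0.131 RPKM, against 2.26 ± 0.135 in controls, a log2 change of -0.53 ± 0.16 with an adjusted p of 0.0474 in limma and 0.039 with the run as a covariate. Within run A it was -0.56. The call was lost whichever single heart of either group was left out. Log2 changes at 12 h, 24 h and 72 h were -0.51, -0.40 and -0.50 (SE 0.16 each), with adjusted p values of 0.21, 0.45 and 0.18. Exons of Fam131a and Polr2h overlap Clcn2 on the opposite strand.

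The endosomal and lysosomal ClC transporters did not pass in any of the 6 comparisons. Clcn4-2, the mouse ClC-4 gene, led them with 15.31, 19.72 and 18.22 RPKM in control hearts, 15.57, 17.48 and 14.81 at 12 h, 16.58, 16.03 and 18.30 at 24 h, 14.14, 14.18 and 18.31 at 72 h, and 16.78, 20.58 and 19.36 at 7 d. The ranges of all 5 groups overlapped. Clcn7, which acts in lysosomes and at the resorption space of osteoclasts, averaged 8.76 ± 1.55 RPKM at 7 d and 9.28 ± 1.43 in controls. Clcn3 averaged 9.51 ± 1.68 RPKM at 7 d and 8.14 ± 0.683 in controls. Clcn6, a late endosomal member, averaged 3.37 ± 0.0929 RPKM at 7 d, against 2.34 ± 0.268 at 12 h and 2.92 ± 0.575 in controls, with a log2 change of 0.45 ± 0.16 against 12 h (adjusted p = 0.075). Clcn5, whose loss in the kidney causes Dent disease, averaged 0.192 RPKM and was not tested.

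Of the pacemaker channels, Hcn2 was higher at 7 d than at 12 h. These channels open on hyperpolarization, bind cyclic AMP and carry the funny current. Hcn2 (chr10:79179379-79198853, plus strand, mm9) measured 13.19, 14.05 and 17.59 RPKM in control hearts, 12.71, 12.84 and 11.22 at 12 h, 8.37, 12.57 and 12.41 at 24 h, 12.63, 12.91 and 20.38 at 72 h, and 17.26, 24.57 and 25.32 at 7 d. The 7 d hearts were above all 12 h and 24 h hearts, and the lowest of them overlapped the controls. Of the 6 values at these later times, 72 h and 7 d, the run C hearts gave the 3 highest.

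Hcn2 averaged 22.4 ± 4.45 RPKM at 7 d and 12.3 ± 0.900 at 12 h (SD, n = 3 each), and the log2 change was 0.83 ± 0.21 with an adjusted p of 0.0157 in limma. With the run as a covariate the change was 0.59 (adjusted p = 0.030), and within run A it was 0.43. The call was lost without the third 12 h heart, the second 7 d heart or the third 7 d heart (adjusted p of 0.056 to 0.071), and with Y-linked mRNA as a covariate, where the change was 0.40 (adjusted p = 0.44). At 7 d against control, Hcn2 differed by 0.56 ± 0.21 (adjusted p = 0.11), or by 0.33 with the run as a covariate. Hcn4, the main pacemaker channel of the sinus node, averaged 1.33 ± 0.233 RPKM at 7 d, 1.34 ± 0.0200 at 12 h and 0.847 ± 0.343 in controls, with a log2 change of 0.47 ± 0.24 at 7 d against control (adjusted p = 0.26). Hcn3 averaged 0.0553 RPKM.

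Differences between runs varied with base composition across the channel genes. Within control, 12 h and 24 h groups, run A minus run B averaged 0.89 on the log2 scale for Cacna2d1, whose coding sequence has 43.3% GC, and -0.41 for Hcn4, at 62.2% GC. Across the 22 tested genes, this difference correlated with coding GC content with a Pearson r of -0.81 and a Spearman rho of -0.80. Within single groups, r was -0.83 at 24 h, -0.71 at 12 h and -0.47 in controls, and rho was -0.76 at 24 h, -0.62 at 12 h and -0.25 in controls. For run C minus run A within 72 h and 7 d groups, r was 0.80 and rho 0.75. The points share the same few libraries, so these coefficients are a description. Hcn2, at 63.8% GC, was 0.59 higher in run C than in run A, and Clcn1, at 52.8% GC, differed by -0.05.

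**Figure D4:**
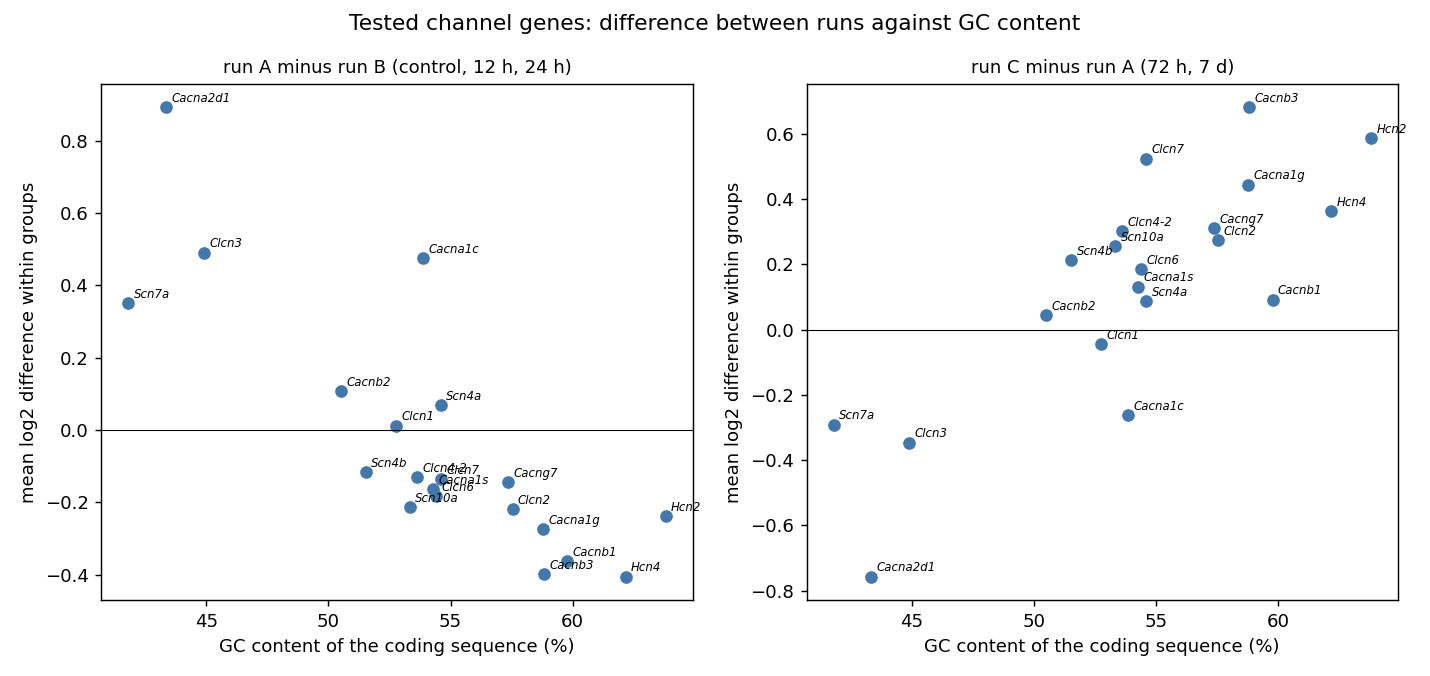
Mean log2 difference between runs within groups (vertical axis) against the GC content of the coding sequence in percent (horizontal axis) for 20 of the 22 tested channel genes, for run A minus run B (left) and run C minus run A (right). Genes low in GC such as Cacna2d1 (43.3%) were higher in run A than in runs B and C, and genes high in GC such as Hcn4 (62.2%) were lower in run A.

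Of the proteins that anchor, modify or inhibit these channels, few passed without a covariate, all of them at 7 d, where the share over all tested genes was also highest. Of 19 tested sodium channel partners, 1 passed as higher at 7 d against control, beside 9.99% of all tested genes, and 3 as higher at 7 d against 12 h, beside 15.6% (11.8% higher). Gja1, the gap junction protein connexin 43 of the intercalated disc, averaged 126 ± 10.04 RPKM at 7 d, against 90.5 ± 10.4 at 12 h and 78.1 ± 10.3 in controls. Its log2 change was 0.69 ± 0.13 against control and 0.48 ± 0.13 against 12 h, with adjusted p values of 0.0032 and 0.021 in limma, the second becoming 0.099 with the run as a covariate. Against 12 h, Ank3, which encodes the ankyrin that tethers sodium channels at the disc, rose by 0.50 ± 0.11 (adjusted p = 0.0071). Nedd4, a ubiquitin ligase of the family that removes channels from the membrane, rose by 0.75 ± 0.20 against 12 h (adjusted p = 0.020). At 12 h, Nedd4 measured 101.29 RPKM in the run A heart but 62.63 and 53.76 RPKM in the run B hearts. At 7 d it measured 132.83 RPKM in run A and 118.64 and 102.94 RPKM in run C.

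Of 12 tested calcium channel partners, 2 passed as higher at 7 d against control, beside 9.99% of all tested genes, and 1 at 7 d against 12 h, beside 15.6%. Rrad, a small GTP-binding protein that inhibits L-type current by way of the beta subunit, averaged 80.8 ± 27.3 RPKM at 7 d and 44.9 ± 5.10 in controls, with a log2 change of 0.79 ± 0.22 (adjusted p = 0.036). Calm3, a calmodulin gene, averaged 210 ± 6.94 RPKM at 7 d and 166 ± 9.17 in controls, with a log2 change of 0.34 ± 0.10 (adjusted p = 0.046 in limma, 0.16 with the run as a covariate), and it also passed against 12 h at 0.56 ± 0.10 (adjusted p = 0.0022). Of 3 tested partners of chloride and pacemaker channels, Nedd4 alone passed, at 7 d against 12 h. No partner of any list passed as lower in the 6 comparisons, nor did any pass at 12 h, 24 h or 72 h. With the run as a covariate, Flna, the filamin A among the partners of chloride and pacemaker channels, passed as lower at 12 h (background 7.31%) and at 72 h (background 4.69%), each against control. The median log2 change of the sodium channel partners at 7 d against 12 h was 0.22, beside 0.13 over all tested genes.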

How the data were processed

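Poly(A)+ RNA of 15 mouse ventricles was sequenced as strand-specific read pairs. The authors mapped reads to mm9 (the submitters' processing notes name Bowtie and TopHat, versions not given in the sources used here) and deposited RPKM values, in which reads on constitutive coding parts of RefSeq genes are divided by their length and by the number of unique reads outside ribosomal and mitochondrial sequence. Values carry 2 decimals, read totals are unknown, and precision is the spread between hearts.

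Groups came from sample labels and runs from the title code. A Celf1 cassette in the labels of induced hearts and a design text on Celf1 in muscle are at odds with titles and paper and were not used. The channel genes, partner lists and marker lists were chosen with earlier results of these data known.

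On the scale of log2(RPKM + 0.5), the 10557 genes averaging 1 RPKM or more were tested with limma 3.58.1 (R 4.3.3, trended variance). All 5 groups entered 1 fit of 6 comparisons, and p-values were Benjamini-Hochberg adjusted over all genes, with 0.05 as the threshold. The fit was tested on simulated data. Values of 3 channel genes are not reported here. For the others, values in all hearts are given for channel genes called in any comparison, the highest member of each subfamily, and the 2 with the smallest p in each comparison.

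Alternatives were pseudocounts of 0.1 and 1, no minimum or 5 RPKM, median-ratio and quantile scaling, run or Y-linked mRNA as a covariate, the compared groups alone, and leaving out each heart. Gene positions and coding GC came from GENCODE annotation of mm9, and promoter windows from RefSeq (GRCm38.p6). Python 3.11.15, scipy 1.17.1 and matplotlib 3.10.9 were used for correlations and plots.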

Additional observations from a re-analysis of the deposited data

Results flagged for a closer look

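For 5 of the channel genes reported, the change at 7 d differed from the change at 12 h, beside 15.6% of all tested genes. The test is the limma comparison of 7 d against 12 h given above, in which the shared controls cancel, so these are the same calls. The log2 change at 7 d minus that at 12 h was -0.93 for Clcn1 (adjusted p = 0.000631). Scn4b gave 0.69 (adjusted p = 0.0111) and Hcn2 gave 0.83 (adjusted p = 0.0157). Cacna1s gave -0.46 (adjusted p = 0.038) and Cacnb1 gave 0.51 (adjusted p = 0.0491). Of these 5, Clcn1 alone kept its call whichever single 7 d or 12 h heart was left out. Clcn1 alone of the 5 also kept it with Y-linked mRNA as a covariate (background 2.3%). Groups of 3 hearts are too small for a test of single outlying hearts.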

How the results depend on the processing

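The alternatives were followed for changes called in limma, with or without the run as a covariate, and for the 2 smallest p in each comparison. None of these turned its direction, but changes near 0 were not among them. Cacna2d1 at 7 d against control, for example, went from 0.007 to -0.08 with the run as a covariate. Over 21 changes of 9 genes and 307 values, 257 kept their side of the threshold, 37 lost it and 13 gained it. At 12 h against control, quantile scaling gave 1 channel gene (Clcn1, background 0.521%) and the run as a covariate 5 (background 7.31%), in place of 0. With the run as a covariate, 24 h gave 1 (background 3.09%) and 72 h gave 1 (background 4.69%), in place of 0. Leaving out single hearts gave 0 to 1 at 72 h, the 1 beside a background of 2.55%. At 7 d against control, 2 genes passed (background 9.99%). The count was 1 with a pseudocount of 0.1 (background 9.9%) and 1 without a minimum (background 7.28%). A minimum of 5 RPKM, which leaves Clcn2 untested, gave 1 (background 11.6%). Quantile scaling gave 4 (background 12.3%), the compared groups alone 4 (background 11%) and Y-linked mRNA as a covariate 0 (background 3.93%). Leaving out any single heart gave 1 each time, without Clcn2 (background 5.01% to 7.16%). At 7 d against 12 h, 6 passed (background 15.6%), and Y-linked mRNA as a covariate gave 2 (background 2.3%). Leaving out single hearts gave 2 (without the third 7 d heart) to 7 (without the run A heart at 12 h). These stood beside 8.85% and 22.1% of all tested genes, and Clcn1 passed each time. Median-ratio scaling moved the median change of all genes at 7 d against 12 h to 0.02, in place of 0.13. With it 5 channel genes passed (background 14.5%), Cacnb1 being the one lost. No paired analysis was possible because the labels give animal numbers and the groups share none. Depth is unknown, and so is the counting error of the 27 genes under 1 RPKM, which were tested only without a minimum, where Cacna2d3 alone of them passed, at 7 d against 12 h.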
